A study of Homo sapiens with 12 samples.

Results

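The 10 genes described here carry 2 consecutive steps of antigen processing, the making of peptides by the immunoproteasome and their transport, trimming and loading onto MHC class I. They were chosen by name: PSMB8, PSMB9 and PSMB10, the inducible catalytic subunits of the immunoproteasome; PSME1 and PSME2, the subunits of the proteasome activator PA28; TAP1 and TAP2, which pair to form the peptide transporter; TAPBP, which encodes tapasin; and ERAP1 and ERAP2, the peptidases of the endoplasmic reticulum. All 10 were found among the 40173 gene IDs of the deposited table, and all 10 passed the filter on low values. The values are TPM, transcript levels scaled for transcript length and for the sum over each library, and the filter kept 12773 IDs whose average reached 2 TPM under 1 or more conditions. The rule itself used no measured value, though the genes were chosen with earlier results of these data known.

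RNA of 624Mel, a human melanoma cell line, was sequenced in 4 conditions of 3 libraries each, numbered 1 to 3. Cells received a control siRNA (siCTRL) or an siRNA against MITF (siMITF), the transcription factor of the melanocyte lineage, by reverse transfection. From 24 hours after transfection, part of each was given 5 ng/mL interferon gamma (IFNγ) for 24 hours (siCTRL + IFNγ and siMITF + IFNγ), and all cells were collected 48 hours after transfection. All conditions thus carried a transfected siRNA, and the knockdown is transient and was made in 1 cell line. The study's methods state in general that experiments were repeated independently, while the labels do not tie the 3 libraries of a condition to separate cultures. The p-values measure the spread between these libraries, which may be technical.

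The proteasome is a barrel whose 3 kinds of active subunit, PSMB5, PSMB6 and PSMB7 in most cells, cut proteins into peptides. Interferon gamma is known to induce the subunits PSMB8, PSMB9 and PSMB10, which take their places in newly assembled particles and shift the cut towards peptide ends that MHC class I binds well. PA28, a ring of PSME1 and PSME2, caps the barrel and opens its gate. The peptides enter the endoplasmic reticulum through the TAP1-TAP2 transporter, are shortened at their amino end by ERAP1 and ERAP2, and are loaded onto class I molecules that tapasin holds beside the transporter. Melanomas are known to lower this machinery as a way of hiding from T cells, and interferon gamma is known to restore it.

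Promoters of genes that interferon induces often hold a short motif through which interferon regulatory factors are known to act. The 300-base windows that RefSeq gives around each listed start of transcription in GRCh38.p14 (250 bases before and 50 after) were searched on both strands for GAAANNGAA, the core of the interferon-stimulated response element. All 10 genes had at least 1 window, 14 windows in all. At least 1 match lay in a window of 9 genes, against 9.86% of all 27305 gene symbols in the table and 8.11% of all 35116 windows. The matches are shown because they are what most of these promoters share. They are printed with 30 bases each, and for TAP1 in 100 of the bases that lie between its start and that of PSMB9. Each is written 5′ to 3′ on the strand on which the motif reads forward, with the matched bases in capitals.
PSMB8 (chr6:32844031-32844060, + strand): gaggaggaagtGAAAGCGAAagccacagat
PSMB10 (chr16:67936852-67936881, - strand): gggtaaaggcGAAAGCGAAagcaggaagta
PSME1 (chr14:24136190-24136219, - strand): caccgcgaaggGAAAGCGAAagcggtaggg
PSME2 (chr14:24146619-24146648, - strand): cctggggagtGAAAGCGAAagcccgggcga
TAP1 (chr6:32853780-32853879, + strand): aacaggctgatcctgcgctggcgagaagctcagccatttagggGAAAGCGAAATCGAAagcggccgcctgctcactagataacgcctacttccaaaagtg
TAP2 (chr6:32838778-32838807, - strand): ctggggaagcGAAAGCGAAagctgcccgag
TAPBP (chr6:33314076-33314105, - strand): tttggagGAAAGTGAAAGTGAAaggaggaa
ERAP1 (chr5:96807923-96807952, + strand): cccccaggaccGAAAGTGAAagtggagccc
ERAP2 (chr5:96876460-96876489, + strand): tcttagaacaGAAAGTGAAagcaaaagtaa
In 7 of the 9 genes the motif had a single match, and TAP1 and TAPBP held 2 that overlap by 3 bases. PSMB9 had no match in its own window. It is read from the other strand than TAP1, and 487 bases lie between its start and the nearer TAP1 start, so the 2 matches printed for TAP1 lie between both genes. Distances are in the direction of the gene, from the listed start whose window held the match. The matches began 133 and 127 bases before it in TAP1, 58 in TAP2, 30 in ERAP2, 28 in PSME2 and 21 in PSMB10. In TAPBP they began 20 and 14 bases before it and in PSMB8 3. In PSME1 and ERAP1 they lay just after it. PSMB8, TAP1, ERAP1 and ERAP2 have further listed starts, whose windows held no match of this motif.

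**Figure D1:**
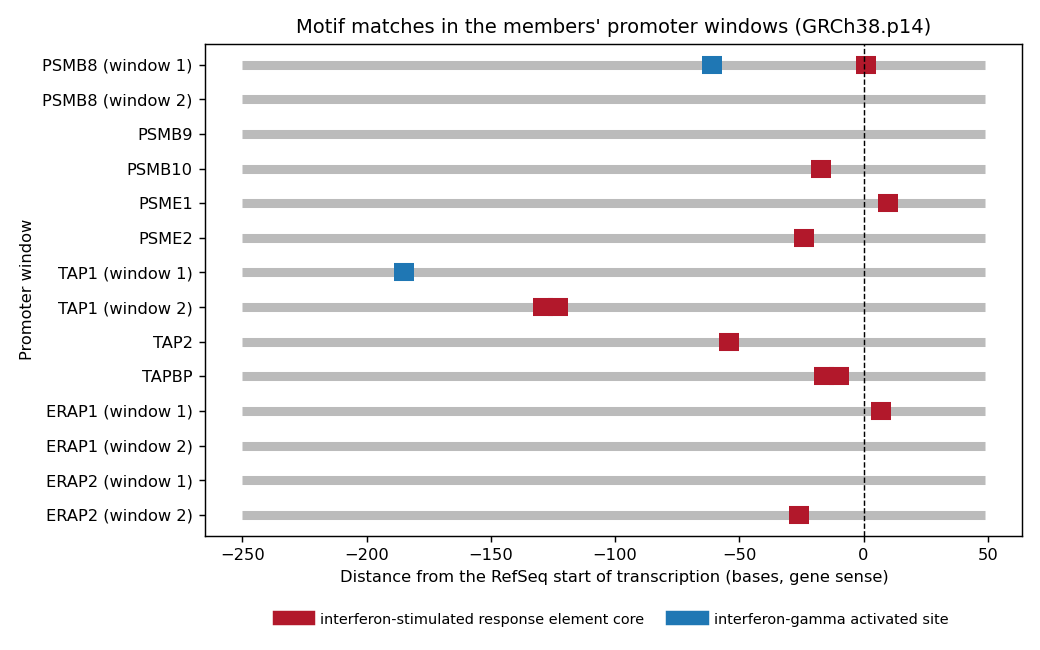
Position of motif matches in the 14 promoter windows of the 10 genes, in bases from the RefSeq start of transcription in the direction of the gene. Red marks the core of the interferon-stimulated response element and blue the interferon-gamma activated site; 9 of the 10 genes have a red mark and 2 a blue one.

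A second motif, TTCNNNGAA, is the site to which STAT dimers are known to bind after interferon gamma. It was present in windows of PSMB8 and TAP1 only among the 10 genes, against 9.38% of all gene symbols, and it did not overlap the first motif. Neither of 2 forms of the E-box that MITF is known to bind, CACGTG (8.78% of gene symbols) and CATGTG (13.4%), occurred in any of the 14 windows. PSMB5, the constitutive partner of PSMB8, had a TTCNNNGAA match and no GAAANNGAA match in its windows. A match describes letters and not a bound site.

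MITF had 187, 229 and 217 TPM in the 3 siCTRL libraries and 36.01, 49.7 and 41.7 TPM in siMITF. With IFNγ it had 158, 246 and 243 TPM in siCTRL and 37.5, 55.1 and 51.3 TPM in siMITF. The siMITF libraries lay below the siCTRL libraries throughout, with a log2 change of -2.29 (SE 0.186, adjusted p = 1.16e-06) without and -2.14 (SE 0.186, adjusted p = 2.39e-06) with IFNγ. On this scale 0.204 and 0.227 of the transcript remained. The melanoma label was checked against 6 melanocytic markers, all of which passed the filter on low values, with a summed level of 5077 to 6738 TPM in the 6 siCTRL libraries and 1317 to 1671 TPM in the 6 siMITF libraries. Most of this sum was PMEL. With siMITF and no IFNγ, MLANA, PMEL, DCT and TRPM1 fell past all thresholds, SOX10 fell by a smaller step, -0.22 (adjusted p = 0.0482), and S100B rose, 1.02 (adjusted p = 2.22e-07). Among 7 immune cell markers, CD3E was listed at 0 in all libraries, PTPRC did not exceed 0.732 TPM and CD68 reached 94.3 TPM. The summed level of the 7 was 64.1 to 89.5 TPM in siCTRL, 58.5 to 96.8 TPM with IFNγ, 30.9 to 33.7 TPM in siMITF and 26.1 to 41.1 TPM with IFNγ, most of it CD68. The only other marker of the list to pass the filter, LYZ, went the other way from CD68 with siMITF. LYZ rose by 0.74 (adjusted p = 7.81e-05) without and 0.71 (adjusted p = 1.10e-04) with IFNγ, and CD68 had -1.34 (adjusted p = 2.46e-04) and -1.28 (adjusted p = 3.75e-04). The part of these markers in the results was not tested. The 6 markers of fibroblasts, keratinocytes and endothelium did not exceed 1.24 TPM.

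The values are TPM, so the number of reads behind them is unknown and no counting error is given. The mitochondrial transcripts took 7.42% to 16.9% of the summed TPM, least in replicate 2 of every condition. No 2 libraries had the same values. In these bulk samples, fewer cells with a transcript and less transcript per cell cannot be told apart. The level of PSMB8 is uncertain: 4 further IDs without a symbol in the annotation used followed it in nearly fixed proportion over the 12 libraries, each at 0.94 times its level on average, and 1 such ID each had the same values as PSME1 and PSME2. The levels given for these 3 genes leave them out. Only IDs whose ratio to a gene had a standard deviation under 0.05 of its mean were picked up. A gene at low levels could miss this limit, so it was not shown that the other genes lack such IDs. Adding them left the direction of every IFNγ change of these genes as it was.

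The first question was how far IFNγ raised these genes in siCTRL and in siMITF cells. All 10 rose in both. In siCTRL cells 8 of the 10 passed all thresholds (adjusted p under 0.05, a log2 change of 1 or more, and 2 TPM or more on average under either condition), and PSMB10 and ERAP2 passed the p alone. In siMITF cells all 10 passed all thresholds. Of all tested IDs, 2.42% rose past all thresholds in siCTRL and 2.72% in siMITF; past the adjusted p alone 6.8% and 7.99% rose. The 3 IFNγ libraries lay above the 3 untreated ones for all 10 genes in both, against 11.7% and 12.1% of tested IDs. The median log2 change of the 10 was 1.55 in siCTRL and 1.82 in siMITF, against −0.07 and −0.10 over all tested IDs. These log2 changes are on the log2(TPM + 1) scale, from limma with Benjamini-Hochberg adjustment over all tested IDs, and they understate the change of genes at low levels.

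**Figure D2:**
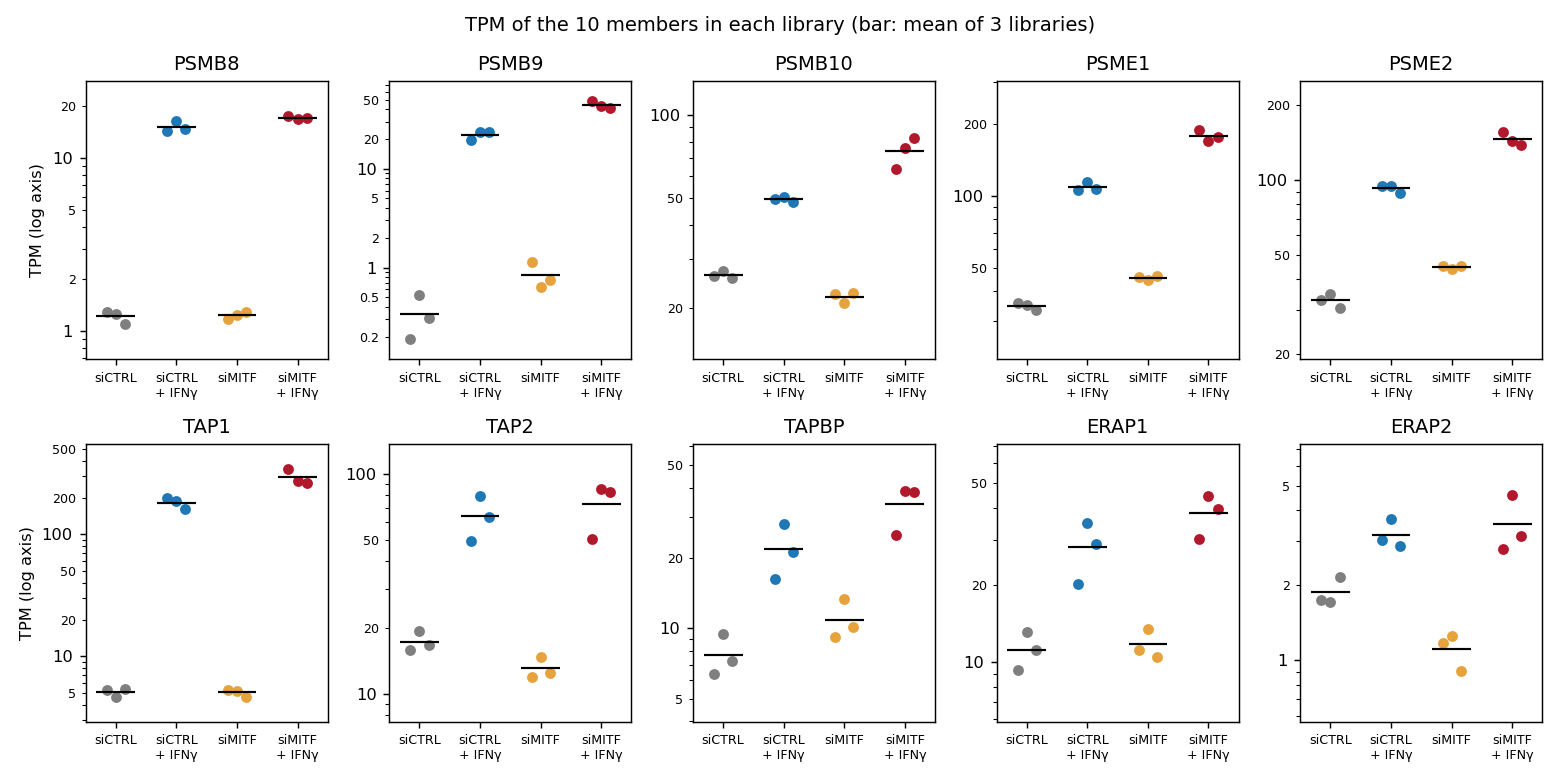
TPM of each gene in the 12 libraries on log axes, with 1 point per library and a bar at the mean of the 3. For every gene the 3 libraries with IFNγ lie above the 3 without it under the same siRNA, and the TAP1 mean is 5.12 TPM in siCTRL and 294 TPM in siMITF + IFNγ.

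Among the catalytic subunits, PSMB9 (chr6:32844136-32859851) lies in the MHC, and its annotated span overlaps those of TAP1 and PSMB8, which are read from the other strand. Whether strand was used in the quantification is not given in the sources used here. PSMB9 had the lowest mean of the 10 genes without IFNγ. It had 0.190, 0.529 and 0.305 TPM in siCTRL and 19.5, 23.4 and 23.3 TPM in siCTRL + IFNγ. In siMITF cells it had 1.13, 0.635 and 0.746 TPM without and 48.2, 43.5 and 41.05 TPM with IFNγ. The treated libraries stood far above the untreated ones, which were near or under 1 TPM in all 6 cases. The log2 change was 4.11 (SE 0.132, adjusted p = 1.42e-10) in siCTRL and 4.63 (SE 0.132, adjusted p = 3.64e-11) in siMITF. As a ratio of mean TPM the rise was 64.6-fold and 52.9-fold, so the order of the siRNAs depends on the pseudocount for this gene.

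PSMB8 (chr6:32840717-32844679, on the strand opposite to PSMB9) was similarly low before treatment, with 1.30, 1.262 and 1.11 TPM in siCTRL and 1.19, 1.24 and 1.29 TPM in siMITF. With IFNγ it had 14.4, 16.4 and 14.8 TPM in siCTRL and 17.4, 16.9 and 17.05 TPM in siMITF. Its libraries agreed closely within each condition, and treated and untreated libraries were far apart. It rose by a log2 change of 2.86 (SE 0.0872, adjusted p = 9.69e-11) in siCTRL and 3.02 (SE 0.0872, adjusted p = 4.02e-11) in siMITF.

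PSMB10 lies outside the MHC (chr16:67934506-67936864) and was expressed without IFNγ. It had 26.1, 27.3 and 25.7 TPM in siCTRL and 49.4, 50.5 and 48.5 TPM in siCTRL + IFNγ. In siMITF it had 22.4, 20.96 and 22.6 TPM without and 63.5, 75.7 and 82.8 TPM with IFNγ. The siMITF libraries were the lowest of the 12 before treatment and the highest after it. The log2 change was 0.88 (SE 0.0905, adjusted p = 1.89e-05) in siCTRL, short of the threshold of 1, and 1.70 (SE 0.0905, adjusted p = 2.02e-08) in siMITF.

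The PA28 subunits PSME1 (chr14:24136163-24138967) and PSME2 (chr14:24143362-24147570) are neighbours on chromosome 14 and had nearly equal levels. PSME1 had 35.6, 35.1 and 33.3 TPM in siCTRL and 106, 114 and 107 TPM in siCTRL + IFNγ. It had 45.96, 44.6 and 46.3 TPM in siMITF and 189.8, 170.2 and 177 TPM in siMITF + IFNγ. The 4 conditions did not overlap and rose in the order siCTRL, siMITF, siCTRL + IFNγ and siMITF + IFNγ. The IFNγ change of PSME1 was 1.62 (SE 0.0665, adjusted p = 1.69e-09) in siCTRL and 1.95 (SE 0.0665, adjusted p = 1.91e-10) in siMITF.

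PSME2 followed the same order. It had 33.1, 34.95 and 30.6 TPM in siCTRL and 94.6, 95.04 and 88.8 TPM with IFNγ, and 45.2, 43.9 and 45.4 TPM in siMITF and 156, 144 and 138 TPM with IFNγ. Its 4 conditions did not overlap either. The IFNγ change was 1.47 (SE 0.0730, adjusted p = 1.09e-08) in siCTRL and 1.68 (SE 0.0730, adjusted p = 2.30e-09) in siMITF.

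TAP1 (chr6:32845209-32853816), the transporter subunit that shares the region of the printed motifs with PSMB9, had the largest log2 change of the 10 genes and ranked 17 of 12773 tested IDs in siCTRL and 18 in siMITF. It had 5.32, 4.67 and 5.36 TPM in siCTRL and 197, 186 and 162 TPM in siCTRL + IFNγ. In siMITF it had 5.32, 5.19 and 4.66 TPM without and 345, 275 and 262 TPM with IFNγ. The untreated libraries of both siRNAs overlapped, and all 3 treated siMITF libraries were above all 3 treated siCTRL libraries. The log2 change was 4.90 (SE 0.112, adjusted p = 5.99e-12) in siCTRL and 5.60 (SE 0.112, adjusted p = 1.32e-12) in siMITF.

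TAP2 (chr6:32821833-32838739), the other transporter subunit, started higher and rose less. It had 15.9, 19.2 and 16.6 TPM in siCTRL and 49.3, 78.8 and 63.8 TPM in siCTRL + IFNγ. In siMITF it had 11.98, 14.8 and 12.5 TPM without and 50.4, 85.4 and 82.3 TPM with IFNγ. Replicate 1 was the lowest and replicate 2 the highest in all 4 conditions. The log2 change with IFNγ was 1.81 (SE 0.199, adjusted p = 3.66e-05) in siCTRL and 2.36 (SE 0.199, adjusted p = 2.43e-06) in siMITF.

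TAPBP (chr6:33299694-33314284), which encodes tapasin, showed the same spread over replicates as TAP2. It had 6.38, 9.42 and 7.23 TPM in siCTRL and 16.3, 28.1 and 21.2 TPM in siCTRL + IFNγ. In siMITF it had 9.22, 13.3 and 10.2 TPM without and 24.999, 38.5 and 38.4 TPM with IFNγ. Again replicate 1 was the lowest and replicate 2 the highest in all 4 conditions, and treated and untreated libraries did not overlap under either siRNA. The IFNγ change was 1.38 (SE 0.217, adjusted p = 9.16e-04) in siCTRL and 1.54 (SE 0.217, adjusted p = 2.72e-04) in siMITF.

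The trimming peptidases ERAP1 (chr5:96760810-96808100) and ERAP2 (chr5:96875986-96919703) were, with PSMB10 and TAPBP, the genes of smallest change in siCTRL. ERAP1 had 9.33, 13.1 and 11.1 TPM in siCTRL and 20.2, 35.1 and 29.1 TPM with IFNγ, and 11.1, 13.5 and 10.5 TPM in siMITF and 30.2, 44.7 and 39.7 TPM with IFNγ. Replicate 2 was the highest in all 4 conditions. It rose by 1.24 (SE 0.196, adjusted p = 9.76e-04) in siCTRL and 1.62 (SE 0.196, adjusted p = 7.88e-05) in siMITF. ERAP2 stayed below 5 TPM in every library. It had 1.74, 1.72 and 2.17 TPM in siCTRL and 3.02, 3.67 and 2.88 TPM with IFNγ, and 1.17, 1.25 and 0.909 TPM in siMITF and 2.79, 4.61 and 3.16 TPM with IFNγ. The IFNγ change of ERAP2 was 0.54 (SE 0.149, adjusted p = 0.0314) in siCTRL and 1.08 (SE 0.149, adjusted p = 2.31e-04) in siMITF. In siCTRL this call did not hold in every fit. In 5 of the 12 fits that left out 1 library (siCTRL replicate 1 or 2, or any siCTRL + IFNγ library) the adjusted p of ERAP2 exceeded 0.05. The log2 change itself ran from 0.46 to 0.61 over the 12 fits. Without the filter on low values the adjusted p of ERAP2 was 0.0897.

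**Figure D3:**
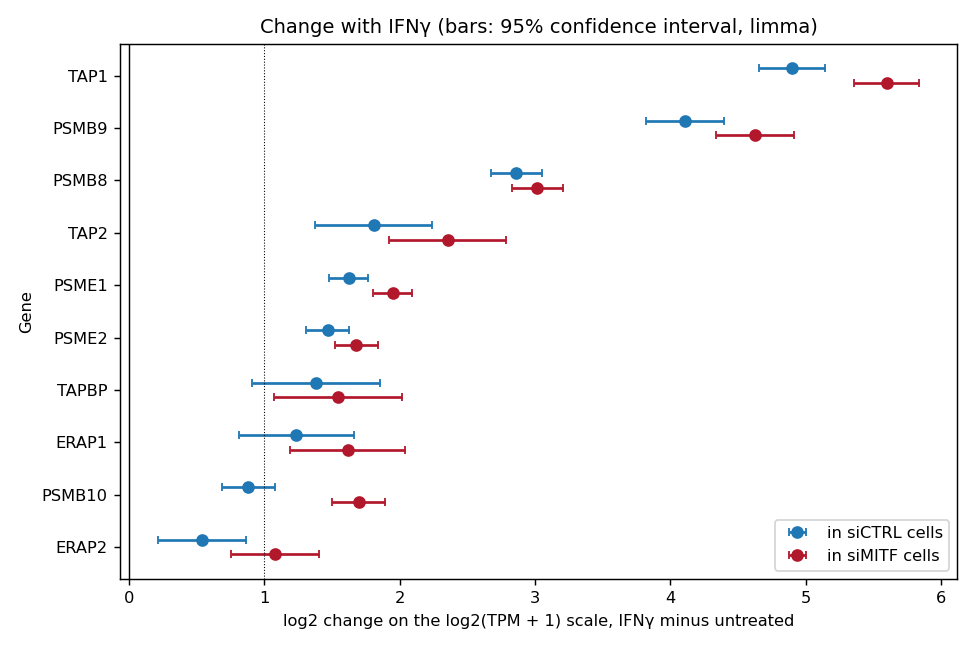
Log2 change with IFNγ of each gene in siCTRL (blue) and siMITF (red) cells, on the log2(TPM + 1) scale; points are limma estimates, bars their 95% confidence intervals, and the dotted line marks the threshold of 1. The red point lies to the right of the blue one for all 10 genes, with PSMB10 at 0.88 and 1.70.

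The changes altered the order of the 10 genes, since TPM can be compared between genes. In siCTRL cells PSME1 (34.7 TPM on average), PSME2 (32.9) and PSMB10 (26.4) were the highest and ERAP2 (1.87), PSMB8 (1.22) and PSMB9 (0.341) the lowest; the libraries of neighbours in this order overlapped only for PSME1 with PSME2 and for ERAP1 with TAPBP. By the named IDs, TAP1 moved with IFNγ from the seventh place to the first, at 182 ± 17.7 TPM (SD, n = 3) in siCTRL and 294 ± 44.8 TPM in siMITF. ERAP2 was then the lowest, at 3.19 ± 0.423 and 3.52 ± 0.960 TPM. The uncertain IDs bear on the place of PSMB8, PSME1 and PSME2: with them PSMB8 averaged 70.3 ± 4.45 TPM (SD, n = 3) in siCTRL + IFNγ in place of 15.2 ± 1.04. With IDs added to these genes only, TAP1 was not first. PSME1 averaged 218 TPM in siCTRL + IFNγ and 358 TPM in siMITF + IFNγ, both above the TAP1 means, with overlapping libraries in siMITF + IFNγ. PSME2 averaged 186 TPM in siCTRL + IFNγ, above the TAP1 mean of 182 TPM, but their libraries overlapped. In siMITF + IFNγ PSME2 averaged 292 TPM, below the 294 TPM of TAP1. In siCTRL PSMB8, at 5.93 TPM with its IDs added, also passed TAP1. Whether TAP1 and the other genes have further IDs was not settled, so this order is uncertain too. The summed level of the 10 genes was 133 to 147 TPM in siCTRL, 155 to 159 TPM in siMITF, 561 to 631 TPM in siCTRL + IFNγ and 882 to 929 TPM in siMITF + IFNγ, with no overlap between conditions.

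The next question was whether the knockdown of MITF alone moved these genes. None of the 10 passed all thresholds in siMITF against siCTRL without IFNγ, while 6.1% of tested IDs did in either direction. Past the adjusted p alone, 3 of the 10 were higher and 2 lower, against 21% and 13.8% of all tested IDs. The PA28 subunits rose, PSME2 by 0.44 (SE 0.0730, adjusted p = 5.24e-04) and PSME1 by 0.39 (SE 0.0665, adjusted p = 6.70e-04), and so did PSMB9, by 0.45 (SE 0.132, adjusted p = 0.0184) at a level near 1 TPM. ERAP2 fell, with -0.45 (SE 0.149, adjusted p = 0.0346), and so did PSMB10, with -0.25 (SE 0.0905, adjusted p = 0.0479). The values of ERAP1, 0.07 (SE 0.196, adjusted p = 0.832), PSMB8, 0.01 (SE 0.0872, adjusted p = 0.945), and TAP1, -0.01 (SE 0.112, adjusted p = 0.938), lay near 0, with 95% confidence intervals of -0.36 to 0.49, -0.18 to 0.20 and -0.26 to 0.23.

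With 1 library left out, the smaller of these calls did not all hold. PSMB9 lost its adjusted p under 0.05 without siCTRL replicate 1 or 3 or without siMITF replicate 1 (up to 0.0889), and also with quantile normalization (0.101). ERAP2 lost it without any one of the 6 untreated libraries (up to 0.128), and PSMB10 lost it in 9 of 12 fits (up to 0.154), those without siCTRL + IFNγ replicate 2 or 3 or siMITF + IFNγ replicate 2 included. Without the filter on low values both ERAP2 (0.0868) and PSMB10 (0.0684) lost it. ERAP2 also lost it with length and GC trends removed (0.0957), and PSMB10 with a minimum of 5 TPM over all libraries (0.0502) or moderation without trend (0.0550). PSME1 and PSME2 kept it in all 12 fits that left out 1 library. Replicate numbers paired the libraries, and with the number as a block TAPBP, 0.46, passed the adjusted p (0.00194 with, 0.126 without the block) and so did TAP2, -0.38 (0.0150 with, 0.168 without the block). Both also passed with median centring and in a fit of the compared conditions alone, and TAP2 with quantile normalization (0.0303).

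With IFNγ present, the catalytic subunits PSMB9 and PSMB10, both PA28 subunits, TAP1 and TAPBP were higher after the knockdown. None passed all thresholds between siMITF + IFNγ and siCTRL + IFNγ, against 5.68% of tested IDs in either direction, but 6 of 10 were higher past the adjusted p, against 18.4% of tested IDs, and 0 lower, against 14.7%. All 10 values were above 0, against 6796 of 12773 tested IDs, with a median of 0.59 against 0.03 over all tested IDs. PSMB9 was the closest to the threshold of 1, with 0.98 (SE 0.132, adjusted p = 1.08e-04), and passed it with a pseudocount of 0.1 and in 3 of the fits that left out 1 library (siCTRL + IFNγ replicate 2 or 3, or siMITF + IFNγ replicate 3). TAP1 rose by 0.69 (SE 0.112, adjusted p = 4.50e-04), PSME1 by 0.71 (SE 0.0665, adjusted p = 4.66e-06), PSME2 by 0.65 (SE 0.0730, adjusted p = 2.28e-05) and PSMB10 by 0.56 (SE 0.0905, adjusted p = 4.09e-04). For these 5 genes the 3 siMITF + IFNγ libraries all lay above the 3 siCTRL + IFNγ libraries, and each kept its adjusted p under 0.05 whichever library was left out. The PSMB8 libraries did not overlap either, though PSMB8 did not pass the test. Of all tested IDs, 21.3% had siMITF + IFNγ libraries wholly above those of siCTRL + IFNγ.

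The others differed less or varied more. TAPBP rose by 0.62 (SE 0.217, adjusted p = 0.0446) with overlapping libraries, and this was lost in 7 of the 12 fits that left out 1 library: siCTRL replicate 3, siMITF replicate 1 or 3, siCTRL + IFNγ replicate 1 or 3, or siMITF + IFNγ replicate 2 or 3, with adjusted p up to 0.146. It was also lost without the filter on low values (0.123) and in a fit of the compared conditions alone (0.0847). With the replicate block TAPBP passed the adjusted p. By replicate number, each siMITF + IFNγ library lay above the siCTRL + IFNγ library of the same number. ERAP1 had 0.44 (SE 0.196, adjusted p = 0.103), which became 0.00306 with the replicate block and fell under 0.05 without siCTRL + IFNγ replicate 2 or without siMITF + IFNγ replicate 1 (0.0344 and 0.0372). It also passed with quantile normalization (0.0111) and with median centring (0.0141). TAP2, with 0.17 (SE 0.199, adjusted p = 0.560), PSMB8, with 0.17 (SE 0.0872, adjusted p = 0.168), and ERAP2, with 0.09 (SE 0.149, adjusted p = 0.679), did not pass. Of the 4 genes of the MHC class II region, PSMB9 and TAP1 passed. PSMB8 and TAP2 did not, with 95% confidence intervals of -0.02 to 0.36 and -0.26 to 0.60. This does not show that the 2 pairs differ in their siMITF change. That was tested only as the ratio of TAP1 to TAP2, averaged over IFNγ states. The ratio did not pass (adjusted p = 0.0709 by exact permutation), but did with the replicate block, as given below. PSMB9 was not tested against PSMB8.

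**Figure D4:**
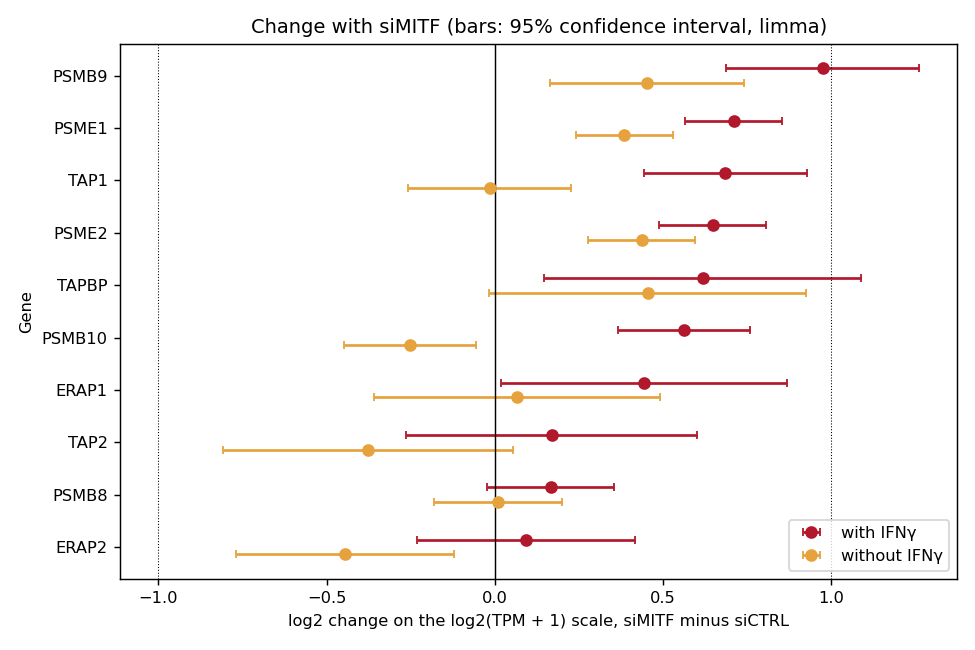
Log2 change with siMITF of each gene with IFNγ (red) and without it (orange), on the log2(TPM + 1) scale; points are limma estimates, bars their 95% confidence intervals, and dotted lines mark the thresholds. The 10 red points lie between 0.09 and 0.98, and the orange ones between −0.45 and 0.46.

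Cells with both treatments were also set against untreated siCTRL cells. Here 9 of the 10 genes passed all thresholds, against 5.61% of tested IDs that rose, and ERAP2 passed the p alone with 0.64 (SE 0.149, adjusted p = 0.00406). The largest values were those of TAP1, 5.58, and PSMB9, 5.08. In mean TPM, the level with both treatments was set against the sum of the single effects. The factor ran from 1.13 in PSMB8 to 1.96 in PSMB9, with 1.22 in TAP2, 1.62 in TAP1 and 1.64 in PSMB10. These factors are a description without a test. They were not computed for the other tested IDs, so it is not known how common such factors are among them.

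Whether the IFNγ change itself differed between siMITF and siCTRL cells was tested as the interaction on the log2 scale. None of the 10 passed both thresholds (adjusted p under 0.05 and an absolute log2 interaction over 1), against 0.478% of tested IDs. PSMB10 passed the adjusted p, with 0.81 (SE 0.128, adjusted p = 0.00834), as did 0.705% of tested IDs in this direction. Its mean rose from 26.4 to 49.5 TPM in siCTRL and from 22.0 to 74.0 TPM in siMITF, a rise of 23.1 against 52.0 TPM. TAP1 had 0.70 (SE 0.158, adjusted p = 0.0685), and 0.00878 with the replicate block, so that the block changed its call, and 0.0328 with quantile normalization. The other 8 values ran from 0.16 in PSMB8 to 0.55 in TAP2 and did not pass. All 10 interactions were above 0, against 5403 of 12773 tested IDs, with a median of 0.45 against −0.03 over all tested IDs. That of PSMB9 was −0.12 with a pseudocount of 0.1.

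Since inducible and constitutive subunits compete for the same places, their levels were also compared within each library. PSMB9 made up 0.103%, 0.291% and 0.174% of the summed TPM of PSMB9 and PSMB6 in siCTRL and 10.6%, 11.6% and 12.3% in siCTRL + IFNγ. In siMITF it made up 0.653%, 0.370% and 0.423%, and with IFNγ 23.8%, 20.0% and 20.0%. The 4 conditions did not overlap. The log2 ratio of PSMB9 to PSMB6 rose by 4.45 with IFNγ and by 0.77 with siMITF, each averaged over the other factor.

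PSMB10 made up 5.48%, 5.54% and 5.54% of the PSMB10 and PSMB7 sum in siCTRL and 9.94%, 9.80% and 9.97% with IFNγ. In siMITF it made up 5.76%, 5.32% and 5.57%, and with IFNγ 15.02%, 16.6% and 18.9%. The untreated shares of both siRNAs overlapped and the treated ones did not. The log2 ratio rose by 1.31 with IFNγ. PSMB8 went from 0.518% ± 0.0364 (SD, n = 3) of the PSMB8 and PSMB5 sum in siCTRL to 6.44% ± 0.0502 with IFNγ, and from 0.567% ± 0.0096 in siMITF to 7.75% ± 0.57. With the IDs that follow PSMB8 added, these shares were 2.46%, 24.2%, 2.69% and 28.3%. The log2 ratio rose by 3.03 with IFNγ and by 0.20 with siMITF. These are shares of transcript and not of protein in assembled particles.

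**Figure D5:**
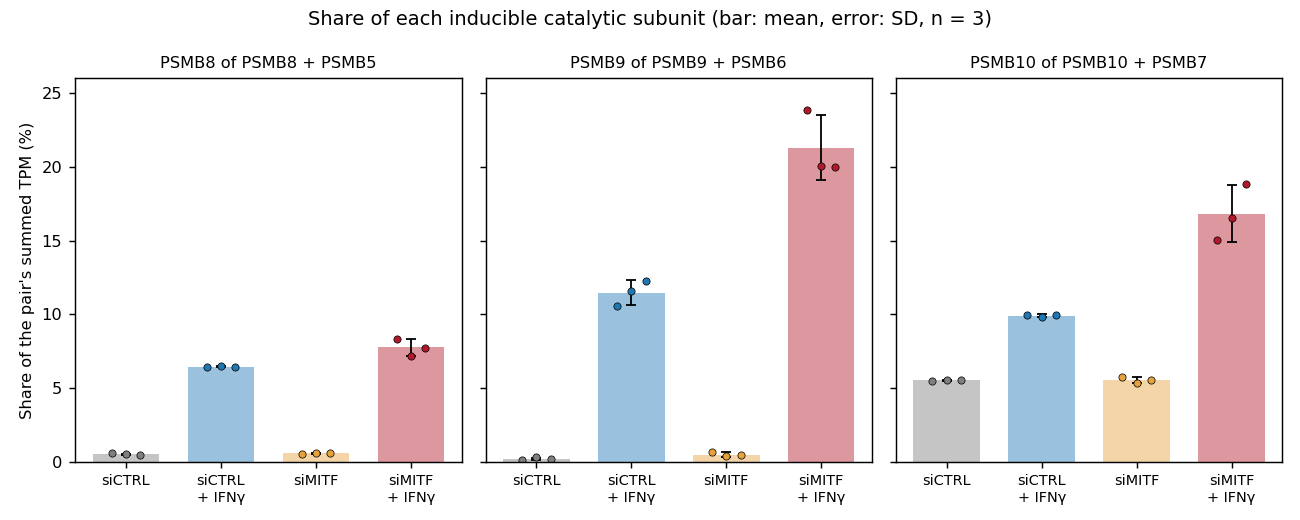
Share of each inducible subunit in the summed TPM of itself and its constitutive partner, in percent. Points are libraries, bars the mean and error bars the SD of 3; the share of PSMB9 averages 0.189% in siCTRL and 21.3% in siMITF + IFNγ.

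All 6 log2 ratios of partner genes changed with IFNγ, each with p = 0.005 in an exact two-sided permutation test within siRNA groups (400 assignments, the smallest p it can give) and 0.00667 after adjustment over 12 tests. Besides the 3 subunit pairs, TAP1 to TAP2 rose by 3.16: TAP1 took 22.996% ± 3.02 (SD, n = 3) of their sum in siCTRL and 74.0% ± 5.21 with IFNγ, and 28.0% ± 2.47 and 79.9% ± 6.39 in siMITF. PSME2 to PSME1 fell by 0.21, a small shift within a nearly even pair. ERAP2 to ERAP1 fell by 0.61, but this rests on the pseudocount of 1. With a pseudocount of 0.1 it fell by 0.347 and did not pass (adjusted p = 0.0709 by exact permutation). In mean TPM, ERAP1 rose 2.52-fold and ERAP2 1.70-fold in siCTRL, and 3.27-fold and 3.17-fold in siMITF.

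With siMITF, the same exact permutation test within IFNγ states found higher ratios of PSMB8 to PSMB5 and of PSMB9 to PSMB6 and a lower ratio of ERAP2 to ERAP1 (−0.43), each with adjusted p = 0.00667. PSMB10 to PSMB7 was higher by 0.44 (adjusted p = 0.042 by exact permutation), with a value of 0.02 without and 0.86 with IFNγ, and was not past the threshold with the replicate block (0.102) or without siMITF replicate 1 (0.078). TAP1 to TAP2 was higher by 0.44 with adjusted p = 0.0709 by exact permutation, and 0.0375 with the block or 0.024 without siCTRL + IFNγ replicate 1. PSME2 to PSME1 differed by −0.0058 (adjusted p = 0.78 by exact permutation). PSMB7 was itself lower in siMITF, with -0.27 (SE 0.0558, adjusted p = 0.00245) without and -0.30 (SE 0.0558, adjusted p = 0.00121) with IFNγ. PSMB8 itself did not pass in limma with siMITF, either without IFNγ (0.01, adjusted p = 0.945) or with it. Its ratio to PSMB5 was higher by 0.12 without and 0.27 with IFNγ. PSMB5 had -0.11 (adjusted p = 0.251 by limma) without and -0.11 (adjusted p = 0.278 by limma) with IFNγ.

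The rest of the proteasome moved less with IFNγ than the 10 genes did, and none of its genes listed here passed all thresholds. None of the 3 constitutive catalytic subunits changed in siCTRL or siMITF, with log2 values between −0.09 and −0.00441. None of 18 genes of the 19S cap, which recognises and unfolds ubiquitinated proteins, changed in siCTRL, with values from −0.25 to 0.05, and 1 fell in siMITF. Of the 11 remaining subunits of the 20S barrel, 3 rose in siCTRL, PSMA6 the most with 0.35 (adjusted p = 0.00914). In siMITF 2 rose, PSMA3 with 0.61 (adjusted p = 2.74e-04) and PSMA6 with 0.54 (adjusted p = 3.35e-04), and 1 fell. Of 8 other activators and assembly factors, 1 fell in siCTRL and in siMITF each, PSMG3 with -0.36 (adjusted p = 0.00671) in siCTRL. POMP, the chaperone of new barrels, had -0.15 (adjusted p = 0.320) in siCTRL and 0.15 (adjusted p = 0.260) in siMITF, and PSME3 and PSME4, the nuclear activators, had -0.28 (adjusted p = 0.357) and -0.04 (adjusted p = 0.861) in siCTRL. The inhibitor PSMF1 had 0.03 (adjusted p = 0.883) with IFNγ in siCTRL and was higher in siMITF, by 0.38 (adjusted p = 0.0116) without and 0.40 (adjusted p = 0.00895) with IFNγ.

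Among 5 loading partners, 2 rose past all thresholds with IFNγ. B2M, the light chain of class I, had a mean of 137 ± 9.59 TPM (SD, n = 3) in siCTRL and 556 ± 77.2 TPM after IFNγ. In siMITF cells it had 162 ± 13.3 TPM, and 963 ± 93.3 TPM after IFNγ, with IFNγ changes of 2.01 (adjusted p = 2.07e-08) and 2.56 (adjusted p = 1.47e-09). TAPBPL, a relative of tapasin that edits peptides, rose by 1.30 (adjusted p = 1.67e-05) and 1.34 (adjusted p = 1.11e-05) at levels below 5 TPM. The chaperone CALR rose by 0.30 (adjusted p = 0.0419) and 0.34 (adjusted p = 0.0178). PDIA3, the tapasin partner of the loading complex, did not pass with IFNγ, 0.03 (adjusted p = 0.911) in siCTRL, and fell with siMITF, with -0.82 (adjusted p = 6.98e-05). CANX could not be judged: it had 4.93, 56.3 and 48.9 TPM in siCTRL + IFNγ and 4.37, 48.1 and 40.7 TPM in siMITF + IFNγ, with replicate 1 far below the others in both.

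Of 7 other peptidases, LAP3, which trims peptides in the cytosol, rose by 1.76 (adjusted p = 4.33e-07) in siCTRL and 2.43 (adjusted p = 1.26e-08) in siMITF, BLMH fell by 0.49 on the log2 scale in siCTRL (adjusted p = 0.00101), and 5 did not pass there. LNPEP, the neighbour and relative of ERAP2, had 0.02 (adjusted p = 0.934) in siCTRL. Of 6 regulators of class I transcription, 2 rose past all thresholds with IFNγ in siCTRL and in siMITF. IRF1 rose from 2.49 ± 0.292 TPM (SD, n = 3) in siCTRL to 87.96 ± 12.8 TPM and from 3.08 ± 0.247 in siMITF to 155 ± 19.1 TPM. NLRC5, the activator of class I genes, rose from 2.30 ± 0.653 to 54.9 ± 8.72 TPM and from 1.65 ± 0.168 to 68.9 ± 13.4 TPM. IRF2 rose by less, with 0.72 (adjusted p = 4.18e-04 by limma) in siCTRL and 0.86 (adjusted p = 7.23e-05 by limma) in siMITF. RFX5, RFXANK and RFXAP did not pass with IFNγ under either siRNA. Between siMITF + IFNγ and siCTRL + IFNγ, IRF1 was higher by 0.82 (adjusted p = 2.28e-04), B2M by 0.79 (adjusted p = 9.52e-05) and LAP3 by 0.50 (adjusted p = 0.00739), while NLRC5 had 0.31 (adjusted p = 0.183). RFXANK and RFX5 were also higher there, each by 0.35 (adjusted p = 0.00140 and 0.0439 by limma), and IRF2 and RFXAP did not pass.

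Over the 12 libraries, the mean standardised log2 profile of the 10 genes was most like that of PSMB9 (Pearson r = 0.991) and least like that of ERAP2 (0.896). Each of the 10 genes is part of this mean, so its own values raise its r. Among tested genes outside the 10, the highest r were those of LAP3 (0.997), TCAF2 (0.997), UBA7 (0.996), HLA-B (0.995) and GBP3 (0.995). These are descriptions, since the 12 libraries fall into the 4 conditions that all genes share. HLA-B, a class I heavy chain gene, averaged 2.92 TPM in siCTRL, 86.1 TPM in siCTRL + IFNγ, 4.14 TPM in siMITF and 228 TPM in siMITF + IFNγ. UBA7, the activating enzyme of the ubiquitin-like protein ISG15, averaged 0.357, 5.28, 0.317 and 8.60 TPM in the same order.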

How the data were processed

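The deposited table holds TPM per gene ID and library, which the authors made by trimming reads with Trimmomatic 0.39 and quantifying with kallisto on the Ensembl GRCh38 transcriptome; the Ensembl release is not given in the sources used here. Counts behind the authors' own DESeq2 tests were not used here. TPM were transformed as log2(TPM + 1) and fitted with limma 3.58.1 in R 4.3.3 over the 12773 gene IDs whose average reached 2 TPM under 1 or more conditions. Each condition had its own coefficient, moderation followed a mean trend, and two-sided p-values were adjusted by Benjamini-Hochberg. Ratios of partner genes were tested by exact permutation in Python 3.11.15 with numpy 2.4.6 and pandas 2.3.3, and figures drawn with matplotlib 3.10.9. Both steps were tested on simulated data. Gene positions are those of GENCODE on GRCh38, and promoter windows are from RefSeq on GRCh38.p14.

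Members and gene lists were chosen with earlier results of these data known. Named genes were the 10 members, their direct partners, the extremes of the lists, the 6 regulators, MITF, and the 5 genes most like the members by Pearson r. Single cell type markers, taken from the marker lists, were singled out after their values were seen. TPM is relative within a library, so a large rise of some transcripts lowers the others. Libraries with one replicate number deviated together: after subtracting condition means, all 18 such pairs had correlations over 0.1 (0.102 to 0.625, median 0.279), against a median of −0.196 for different numbers. Alternatives were other pseudocounts, filters, scalings, moderation, samples, ID sums, the replicate block and leaving out each library.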

Additional observations from a re-analysis of the deposited data

Results flagged for a closer look

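In the fit without a replicate block, PSMB10 alone of the 10 had an IFNγ response that differed between the siRNAs by the test of the difference itself. Its interaction was 0.81 (SE 0.128, adjusted p = 0.00834) on the log2 scale, with 95% confidence interval 0.54 to 1.09, and the 3 siMITF + IFNγ libraries (63.5, 75.7 and 82.8 TPM) lay above the 3 siCTRL + IFNγ libraries (49.4, 50.5 and 48.5 TPM). Its adjusted p was under 0.05 in all 26 alternatives (0.73 to 0.92 in value). The replicate numbers paired the libraries, and with them as a block the interaction of TAP1, 0.70, passed too (adjusted p = 0.00878 by limma, against 0.0685 without the block). It also passed with quantile normalization (0.0328), and with the block and length and GC trends removed (0.0115). The 3 libraries of a condition were too few for a check of single outlying samples.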

How the results depend on the processing

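The counts of members past all thresholds with IFNγ in siCTRL, in siMITF without IFNγ, in the combination and in the interaction stayed within 1.5 times the reported count in every alternative run; in siMITF + IFNγ against siCTRL + IFNγ the count of 0 became 1 with a pseudocount of 0.1 and ranged from 0 to 1 with 1 library left out. With IFNγ in siMITF it was 9 to 10. Among the ratios, ERAP2 to ERAP1 with IFNγ was −0.35 with a pseudocount of 0.1 (adjusted p = 0.0709, exact permutation). With the replicate block, the siMITF ratio of PSMB10 to PSMB7 stayed at 0.44 but lost its call, that of TAP1 to TAP2 stayed at 0.44 and gained one, and the calls of TAPBP, TAP2, ERAP1 and TAP1 changed as given in the report; the block changed no other call. ERAP2 in siMITF without IFNγ lost its call when length and GC trends were removed, with limma's adjusted p = 0.0957 without and 0.0521 with the block. With 1 library left out, the siMITF ratios ranged from 0.39 to 0.49 for PSMB10 to PSMB7 (adjusted p up to 0.078 by exact permutation), from 0.26 to 0.55 for TAP1 to TAP2 (0.024 to 0.196) and from −0.019 to 0.012 for PSME2 to PSME1. Signs changed only for values that did not pass: PSMB8 in siMITF without IFNγ (−0.19 with quantile normalization, −0.023 with median centring, −0.028 to 0.035 with 1 library left out), TAP1 (−0.069 to 0.033) and ERAP1 (−0.047 to 0.18) there, TAP2 (−0.0027 to 0.41) and ERAP2 (−0.073 to 0.21) in siMITF with IFNγ, and the interactions of PSMB9 (−0.12 with a pseudocount of 0.1) and TAPBP (−0.021 to 0.36). Of 1604 member values under alternatives, 1533 kept direction and side of the threshold. Adding the IDs without a symbol and removing length and GC trends were alternatives chosen after seeing the data. Depth is unknown, which limits what can be said of PSMB9 and ERAP2 at low levels.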

Other observations

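TAP2, TAPBP and ERAP1 had their highest value in replicate 2 in all 4 conditions, and TAP2 and TAPBP their lowest in replicate 1 in all 4. TAP1 went the other way in part, with its highest value in replicate 1 in 3 conditions. Within siMITF + IFNγ, TAP1 took 87.3%, 76.3% and 76.1% of the summed TPM of TAP1 and TAP2 in replicates 1 to 3. Mitochondrial transcripts took 16.9%, 12.7% and 16.1% of the summed TPM in the same libraries. Their part in these values was not tested.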
